A study of Mus musculus with 6 samples.

Results

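Among the RNAs of the mouse small intestine, 10 genes of ion, bicarbonate and guanylin handling were followed: Slc9a3, Slc26a3, Slc26a6, Slc5a8, Car4, Car2, Cftr, Guca2a, Guca2b and Gucy2c. They were taken by symbol, and all 10 were found among the 32285 features measured. The groups were 3 IE-HuR-/- mice, in which floxed HuR alleles (HuR fl/fl) are removed by a Cre recombinase driven by the villin promoter, that is, in the epithelium, and 3 control littermate mice, which carry the floxed alleles without Cre and have the genotype label wild-type. All mice were C57BL/6 and 6 to 8 weeks old, and each gave 1 droplet library, in which a villus-rich and a crypt-rich fraction had been combined. The methods state that food was withheld before experiments, whereas the labels note normal feeding. The methods take tissue for histology, protein and RNA from the middle small intestine, and for the single-cell libraries they name small intestinal mucosa without the stretch. UMIs (unique molecular identifiers, 1 per captured RNA molecule) were summed per library over cells gated by marker genes, and none of these markers is a member. The 6 libraries, not the cells, were the replicates.

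Enterocytes of the villus absorb sodium chloride by running exchangers side by side in the brush border: Slc9a3 (NHE3) brings in sodium for protons, and Slc26a3 (DRA) and Slc26a6 (PAT1) bring in chloride for bicarbonate. The carbonic anhydrases Car4, anchored on the outer face of the membrane, and Car2, in the cytosol, interconvert carbon dioxide and bicarbonate. Cftr, a chloride and bicarbonate channel opened by cyclic nucleotide signalling, drives secretion and is best known from the crypt. The peptides guanylin (Guca2a) and uroguanylin (Guca2b) are released into the lumen and bind the receptor Gucy2c, which makes cyclic GMP, and this second messenger opens Cftr and inhibits Slc9a3. Slc5a8 carries lactate and short-chain fatty acids into the cell together with sodium.

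The libraries held 60706 barcodes in all, with 59518012 to 91818560 UMIs per library and a median of 1275 to 2877 UMIs per barcode, and any pair of libraries shared 22 to 44 barcodes. Elavl1, the gene of HuR, was at 30.4 ± 1.41 CPM (UMIs scaled to the total of the cells summed; SD, n = 3) in the epithelial cells of control libraries and at 31.2 ± 0.559 CPM (SD, n = 3) in those of the libraries labelled IE-HuR-/-, so its RNA level did not separate the labels. Reads outside the deleted part of the gene do not test the deletion, and which part the reads cover was not tested. RNAs of villus position and of intestinal region moved with the label. In enterocyte-gated cells the 10 villus bottom RNAs, such as Reg3b and Reg3g, summed to 5363 to 6304 CPM in control and 13824 to 15203 CPM in IE-HuR-/- libraries. The 7 villus tip RNAs were higher too, at 7215.5 to 8030 CPM in control and 9887 to 10665 CPM in IE-HuR-/- libraries, so no single direction along the villus is read from these sums. The 5 RNAs of the distal intestine, Fabp6 among them, summed to 1162 to 1223 and 2643 to 3080 CPM, and the 8 of the proximal intestine to 1551 to 1736 and 800 to 822 CPM. Members were therefore also measured in enterocytes split by the distal RNA Fabp6 and by villus tip RNAs. Within one class of cells, fewer cells that express a gene and less RNA per cell cannot be told apart from a summed level.

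The promoters of 4 members, chosen by the differences of their RNAs, are shown, and no result here tests a promoter. Car4 and Slc5a8 had the largest differences between the labels, and the genes of the guanylin peptides lie next to each other on chromosome 4 but differed in direction in goblet-gated cells. Guca2a spans 119637704 to 119639471 on the plus strand and Guca2b 119656607 to 119658954 on the minus strand of that chromosome (GENCODE annotation of GRCm38), with 17136 bases between them. Each line gives the 250 bases before the gene's start in RefSeq (GRCm38.p6), 5′ to 3′ on the strand of the gene. Capitals mark GATAA or its reverse complement TTATC, letters that GATA factors bind.
Car4, chr11:84957504-84957753, plus strand: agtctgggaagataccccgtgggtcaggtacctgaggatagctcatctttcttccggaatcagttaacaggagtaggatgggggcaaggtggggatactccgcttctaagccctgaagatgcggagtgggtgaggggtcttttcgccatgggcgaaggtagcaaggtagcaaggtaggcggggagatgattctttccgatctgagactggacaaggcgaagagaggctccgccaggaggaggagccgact
Slc5a8, chr10:88885742-88885991, plus strand: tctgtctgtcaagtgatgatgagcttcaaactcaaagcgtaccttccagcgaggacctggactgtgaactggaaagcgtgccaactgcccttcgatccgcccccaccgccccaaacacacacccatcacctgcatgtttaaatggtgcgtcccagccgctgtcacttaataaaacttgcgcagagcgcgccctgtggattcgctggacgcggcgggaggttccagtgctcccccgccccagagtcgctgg
Guca2a, chr4:119637482-119637731, plus strand: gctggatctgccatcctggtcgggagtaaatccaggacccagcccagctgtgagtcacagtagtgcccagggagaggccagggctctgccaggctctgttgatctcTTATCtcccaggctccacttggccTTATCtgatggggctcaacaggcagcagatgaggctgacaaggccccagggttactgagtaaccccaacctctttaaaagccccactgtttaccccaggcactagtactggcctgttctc
Guca2b, chr4:119658946-119659195, minus strand: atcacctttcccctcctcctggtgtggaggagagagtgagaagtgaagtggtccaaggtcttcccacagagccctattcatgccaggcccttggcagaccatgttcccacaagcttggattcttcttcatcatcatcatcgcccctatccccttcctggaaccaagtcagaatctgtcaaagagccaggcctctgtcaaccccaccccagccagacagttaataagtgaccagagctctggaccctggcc

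Promoters were found for 8 of the 10 members, all but Car2 and Gucy2c. Guca2a was the one member of these 8 whose promoter held the GATAA letters on either strand, at 144 and 120 bases before the start, and 22.6% of all 32851 promoters of this length held them. The letters TTTAT or their reverse complement ATAAA, which CDX factors bind, stood in the promoters of Slc26a3, Slc26a6 and Slc5a8, that is in 3 of 8, and in 37.3% of all. A match is a description of the letters and not a binding site. Of the genes that the annotation lays over a member, Gm15592, on the strand opposite to Cftr, was the one also counted as a feature.

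The members differed in the cells that held their RNA. In control libraries, enterocyte-gated cells (at least 5% of UMIs from 17 enterocyte markers) held 64.4 to 83.0% of the UMIs of Slc9a3, Slc26a3, Slc26a6, Slc5a8, Cftr, Guca2b and Gucy2c. Epithelial cells that passed no gate, which had fewer enterocyte RNAs, were a second large source of Car4, with 35.4 to 46.1% of its UMIs against 44.0 to 50.5% in enterocytes. This source rested on few cells: 0.0955 to 0.215% of the ungated cells held at least 50% of their Car4 UMIs, with 47 to 72 in the highest cell of each library. Most ungated control cells lay under the 5% enterocyte limit but within 50% of it (2592 of 3249, 4558 of 5227 and 2608 of 3140). Ungated control cells were also shallow, with a median of 780 to 1370 UMIs. Car2 stood apart, because T/NK-gated lymphocytes were at 423 to 486 CPM and held 40.5 to 45.9% of its UMIs in control libraries, whereas enterocytes were at 38.3 to 39.4 CPM. Any whole-tissue value of Car2 therefore mixes lymphocytes and epithelium, and the values below are given by class.

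Guca2b was at 2345 to 2579 CPM in enterocytes of control libraries and at 1353 to 1496 CPM in goblet-gated cells, while Guca2a had the reverse order, at 259.8 to 270.1 and 406 to 632 CPM. Their receptor Gucy2c was at 244 to 308 CPM in enteroendocrine (EEC) cells and 257 to 279.8 CPM in tuft cells, above 159 to 164 CPM in enterocytes. Cftr was at 89.0 to 101 CPM in crypt-gated cells and 22.8 to 24.5 CPM in enterocytes. T/NK cells, which should lack these epithelial RNAs, gave 94.9 to 215 CPM for Guca2b, 30.7 to 74.0 CPM for Slc26a6 and 0.520 to 2.66 CPM for Car4, and these levels are the background against which lower values elsewhere are read.

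The test between classes (edgeR, control libraries, library as a term) called 7 of 10 members between goblet-gated cells and enterocytes, where 34.9% of all genes were called. Guca2a was higher in goblet-gated cells (log2 difference 1.10 ± 0.232 SE, adjusted p = 0.000873). The other 6 were lower there, from -0.83 for Car2 to -0.30 for Gucy2c. Guca2b, at -0.71 ± 0.385, did not pass the test. The call of Slc26a6 was lost without any 1 of the control libraries and that of Gucy2c without control 1 or control 2. Goblet-gated cells also held enterocyte RNAs, whose 17 markers summed to 47736 to 50364 CPM in them against 89159 to 93365 CPM in enterocytes, and the part of these in the members' levels was not tested.

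Between crypt-gated cells and enterocytes 9 of 10 members were called, against 59.0% of all genes. Cftr was higher in crypt-gated cells (1.125 ± 0.252 on the log2 scale, adjusted p = 0.00026), and by 2.01 without scaling by trimmed mean of M values (TMM). Slc9a3 (-5.71), Guca2b (-5.79), Slc26a6 (-4.47) and Slc26a3 (-2.77) were far lower there, while Gucy2c was lower by less, at -1.91. Without TMM scaling these were -4.82, -4.91, -3.58, -1.89 and -1.02 in the same order. Slc9a3 (0 to 5.88 CPM), Slc26a6 (22.5 to 47.0 CPM) and Guca2b (56.2 to 117 CPM) in crypt-gated cells of control libraries were within or below their T/NK levels in those libraries, so the sizes of these differences are taken against background. Car4 did not pass the test. Label effects differed between these classes for none of the members in edgeR (2 at an unadjusted p under 0.05), against 0.131% of all genes. The control libraries held 9 to 13 crypt-gated cells each, and Slc9a3 rested on 2 UMIs in them and Car2 on 1 UMI.

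**Figure D1:**
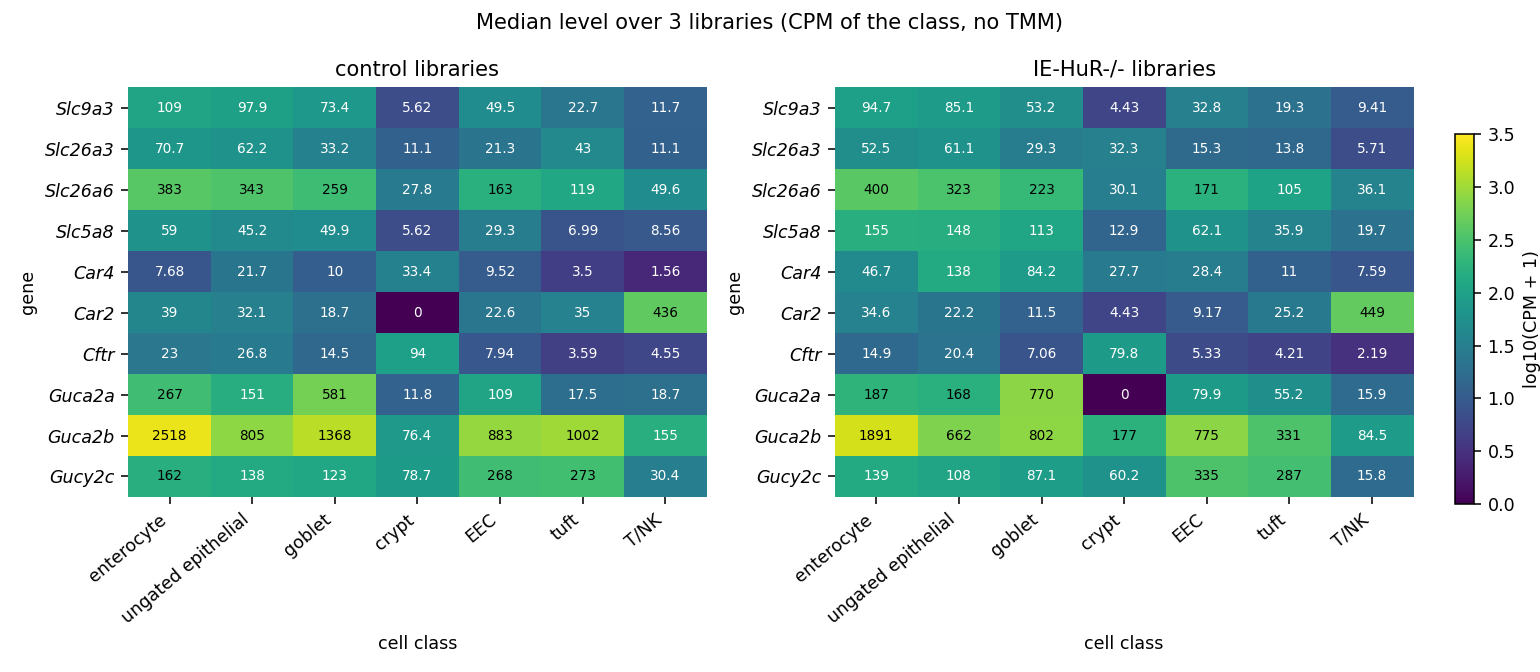
Median level over 3 libraries (CPM of the class total, color on a log10(CPM + 1) scale) of the 10 members (rows) in 7 cell classes (columns), control on the left and IE-HuR-/- on the right. Car2 is highest in T/NK-gated cells, Cftr in crypt-gated cells, Guca2a in goblet-gated cells and Guca2b in enterocytes, and Car4 and Slc5a8 have higher levels on the right in enterocyte, goblet and ungated cells.

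In enterocyte-gated cells the membrane carbonic anhydrase and the monocarboxylate transporter differed most between the labels: Car4 rose 6.70-fold and Slc5a8 2.97-fold in IE-HuR-/- mice. Slc26a6 rose slightly under TMM scaling, whereas the RNAs of Cftr, both guanylin peptides and Slc26a3 fell by 0.20 to 0.47 on the log2 scale. Slc9a3, Car2 and the receptor Gucy2c did not pass the test. Thus 7 of 10 members were called (edgeR quasi-likelihood test, Benjamini-Hochberg adjusted over 12266 genes), 3 higher and 4 lower, where 59.5% of all genes were called, 28.7% higher and 30.8% lower. Without TMM scaling 1796 genes were called higher and 6212 lower, and 2 and 7 of the members. The share of members called is thus close to that of all genes, and what sets Car4 and Slc5a8 apart is the size of their change.

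Car4 was at 6.19, 8.18 and 7.19 CPM (scaled by trimmed mean of M values, TMM) in the control libraries and at 44.8, 50.5 and 49.6 CPM in the IE-HuR-/- libraries. The mean went from 7.19 ± 0.992 to 48.3 ± 3.02 CPM (SD, n = 3), far beyond the spread between libraries (log2 fold change 2.74 ± 0.0799, adjusted p = 1.94e-14). Errors of log2 values are standard errors throughout. Slc5a8 was at 57.3, 55.1 and 53.2 CPM in control and 166, 169 and 157 CPM in IE-HuR-/- libraries (log2 fold change 1.57 ± 0.0446, adjusted p = 7.43e-25). Every IE-HuR-/- library was above every control library for both genes.

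Of the anion exchangers, Slc26a6 was at 356, 358 and 370.3 CPM in control and 428, 431 and 420.4 CPM in IE-HuR-/- libraries (log2 fold change 0.24 ± 0.0397, adjusted p = 4.24e-06), without overlap, but without TMM scaling its difference was 0.05 and was not called (adjusted p = 0.266). Slc26a3, the exchanger lost in congenital chloride diarrhoea, was at 66.4, 60.0 and 68.7 CPM in control and 55.9, 56.4 and 55.8 CPM in IE-HuR-/- libraries (log2 fold change -0.21 ± 0.0481, adjusted p = 0.000302). The exchangers of the same ions thus differed in opposite directions under TMM scaling. Slc9a3 was at 103, 96.3 and 102 CPM in control and 104, 98.8 and 100.4 CPM in IE-HuR-/- libraries, with a difference of 0.00 and a 95% interval from -0.08 to 0.09, but it was called at -0.18 without TMM scaling.

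The RNAs of Cftr and of both guanylin peptides fell, and no peptide was measured. Cftr was at 23.0, 21.3 and 21.6 CPM in control and 14.7, 16.0 and 16.8 CPM in IE-HuR-/- enterocytes (log2 fold change -0.47 ± 0.0601, adjusted p = 4.23e-08), with no overlap. Guca2a was at 244, 252 and 249.7 CPM and 200.2, 213 and 196 CPM (log2 fold change -0.29 ± 0.0417, adjusted p = 2.97e-07). Guca2b was at 2202, 2353 and 2413 CPM and 2044, 2029.8 and 2002 CPM (log2 fold change -0.20 ± 0.0433, adjusted p = 0.000207). The RNAs of both peptides were lower in every IE-HuR-/- library than in every control library.

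Their receptor Gucy2c was at 152, 153 and 149 CPM in control and 148, 146 and 149 CPM in IE-HuR-/- libraries, a difference of -0.04 with a 95% interval from -0.12 to 0.04 that did not pass the test. Car2 was at 36.6, 36.8 and 35.9 CPM and 37.0, 33.2 and 37.5 CPM, a difference of -0.02 with an interval from -0.12 to 0.08. Without TMM scaling, which moves the median of all genes from -0.03 to -0.22, Gucy2c was called at -0.23 and Car2 at -0.21. Car2 was called in the opposite direction with gate limits doubled (0.24, adjusted p = 0.00131) and in cells without region RNAs (0.19, adjusted p = 0.0171), so no direction can be given for Car2. The directions of Car4 (2.55), Slc5a8 (1.38), Cftr (-0.66), Guca2a (-0.48), Guca2b (-0.39) and Slc26a3 (-0.40) were the same without it.

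**Figure D2:**
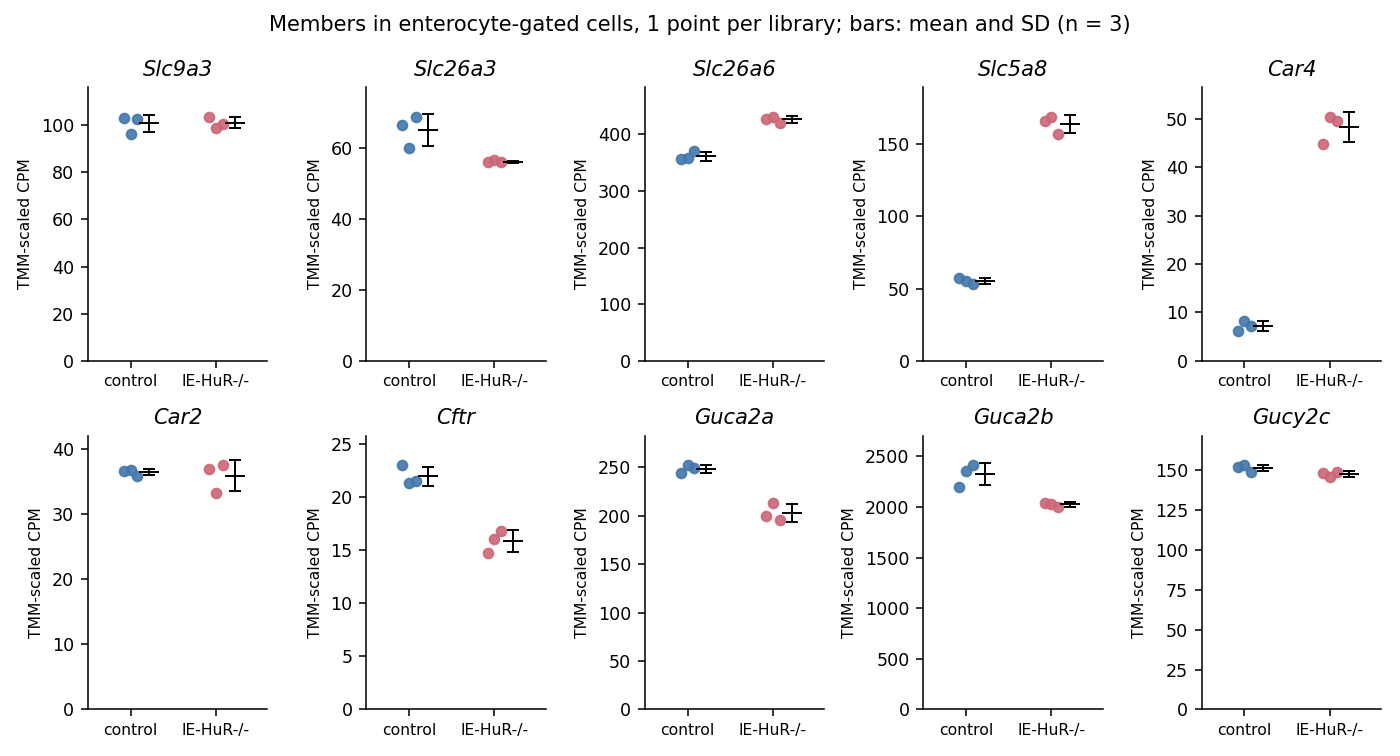
Level of each member (TMM-scaled CPM) in enterocyte-gated cells of the 3 control and 3 IE-HuR-/- libraries, 1 point per library, with the mean and SD of each group. Car4 and Slc5a8 are the members with a gap many times wider than the spread between libraries, and the points of Slc9a3 and Car2 overlap.

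Car4 was concentrated in few cells. Among epithelial cells with at least 2000 UMIs, those with at least 3 Car4 UMIs were 1.43 to 2.03% in control (53 to 77 cells per library) and 8.63 to 9.32% in IE-HuR-/- libraries (265 to 290 cells). These cells carried villus bottom RNA: its median share was 1.55 to 2.39% of UMIs in control cells with Car4 and 0.141 to 0.152% in those without, and 4.30 to 4.63% and 0.317 to 0.343% in IE-HuR-/- cells. Cells with at least 3 Car4 UMIs were also deeper, with a median of 33712 to 55943 UMIs against 7828 to 12835 in control, and the limit of 3 UMIs was not adjusted for depth.

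Cells with Car4 differed from cells without it in other members. Slc26a3 was at 181 to 192 against 50.3 to 55.7 CPM in control libraries and Cftr at 60.4 to 70.3 against 16.4 to 21.3 CPM, and Ada, a villus tip gene, was at 107 to 179 against 2378 to 2851 CPM. Cells with Car4 also held more of the distal RNA Fabp6, at 1265 to 2979 against 519.9 to 617 CPM in control and 11069.9 to 11383 against 547 to 696 CPM in IE-HuR-/- libraries. Slc5a8 was at 57.6 to 71.6 against 50.6 to 55.5 CPM in control and 324 to 340.3 against 85.5 to 97.3 CPM in IE-HuR-/- libraries. After each enterocyte was thinned to 2000 UMIs, 0.655 to 1.20% of control and 5.04 to 5.74% of IE-HuR-/- enterocytes had a Car4 UMI (unthinned 3.25 to 4.08% and 12.1 to 13.2%), against 0.155 to 0.538% and 1.24 to 1.67% of T/NK cells. The exact permutation test of such shares gave p = 0.1, the smallest that 3 against 3 libraries allow. Thinned shares of Gucy2c fell without overlap, from 19.6 to 21.4% in control to 15.9 to 17.7% in IE-HuR-/- enterocytes. Those of Slc9a3 did too, at 12.3 to 13.6% and 9.52 to 11.7%. Slc26a3, Cftr, Guca2a and Guca2b were lower as well, and Slc5a8 was higher. Slc26a6 (37.9 to 40.6% and 36.4 to 40.7%) and Car2 overlapped. These shares are not TMM-scaled, and those of all other genes were not computed.

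To ask whether the label differences followed intestinal region, enterocytes with at least 2000 UMIs were split at 0.1% of UMIs from Fabp6, a bile acid binding protein of the ileum. This split was chosen after Fabp6 had been seen to differ between the labels. Fabp6-high cells made up 5.82 to 6.04% of control (104 to 198 cells per library) and 11.98 to 12.8% of IE-HuR-/- enterocytes (238 to 261 cells). In control libraries they had more Guca2a (2.23 on the log2 scale) and Slc5a8 (2.10) than Fabp6-low cells and less Car2 (-2.86), Slc9a3 (-2.19), Cftr (-1.58) and Slc26a3 (-0.94), 6 of 10 members called against 36.5% of all genes. The split did not make the labels alike in all region RNAs. Of the proximal RNAs tested, 1 of 6 fell and none rose in Fabp6-high cells, and 5 of 8 fell and 1 rose in Fabp6-low cells. Of the 5 distal RNAs, 3 rose and 1 fell in Fabp6-high cells, and 2 rose and 1 fell in Fabp6-low cells. The others were not called. In Fabp6-high cells Fabp6 itself was at 8328 to 9634 CPM in control and 17679 to 19019 CPM in IE-HuR-/- libraries and the proximal RNA Lct at 514 to 527 and 165 to 206 CPM. In Fabp6-low cells Fabp6 was at 15.1 to 26.7 and 59.4 to 70.3 CPM and S100g at 168 to 267 and 4.25 to 6.40 CPM. The part of these RNAs in the label effects was not tested. Cells near the 0.1% limit, on either side of it, numbered 37 to 83 per control and 108 to 127 per IE-HuR-/- library. The part of these cells in the label effects, such as that on Slc9a3, was not tested either. Label effects differed between the kinds of cell for 5 of 10, against 20.6% of all genes.

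In Fabp6-high cells 7 of 10 members were called, 4 higher and 3 lower, where 47.2% of all genes were called, 24.8% higher and 22.4% lower. In Fabp6-low cells it was also 7, 3 higher and 4 lower, where 56.1% of all genes were called, 28.1% higher and 28.0% lower. TMM scaling moves the median of all genes in Fabp6-high cells from -0.38 to -0.03, and the call of Cftr there was lost in each of 4 fits that left out 1 library (control 1 or 3, IE-HuR-/- 2 or 3). Car4 was at 8.12, 6.29 and 9.39 CPM in control and 187, 221 and 215 CPM in IE-HuR-/- libraries in Fabp6-high cells (log2 fold change 4.74 ± 0.134, adjusted p = 1.4e-21). In Fabp6-low cells it was at 6.11, 8.22 and 7.16 CPM and 26.1, 22.9 and 27.8 CPM (log2 fold change 1.83 ± 0.101, adjusted p = 5.01e-09). Car4 thus rose in both, and the rise was larger in Fabp6-high cells by 2.95 ± 0.190 (adjusted p = 1.41e-11).

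Slc9a3 rose in Fabp6-high cells, with 17.6, 28.7 and 20.8 CPM in control and 51.8, 55.6 and 65.7 CPM in IE-HuR-/- libraries (log2 fold change 1.34 ± 0.144, adjusted p = 3.57e-08), and was still called at 0.99 without TMM scaling. In Fabp6-low cells Slc9a3 was at 109.9, 104 and 110.2 CPM and 115, 109.8 and 109 CPM, which did not pass the test (0.04) but was called at -0.14 without TMM scaling. The label effects differed by 1.33 ± 0.175 (adjusted p = 5.42e-05). Fabp6-low cells were most of the enterocytes and had the higher Slc9a3 level. Under TMM scaling Slc9a3 was flat in them, as it was over all enterocytes.

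The RNAs of the guanylin peptides fell in Fabp6-high cells. Guca2a was at 926, 901 and 998 CPM in control and 572, 546 and 555 CPM in IE-HuR-/- libraries (log2 fold change -0.75 ± 0.0634, adjusted p = 4.54e-11), and Guca2b at 2079.6, 2360.5 and 2376 CPM and 1305, 1234 and 1329 CPM (log2 fold change -0.82 ± 0.0645, adjusted p = 1.24e-11). In Fabp6-low cells the log2 fold change was -0.40 for Guca2a and -0.12 for Guca2b (adjusted p = 0.0416), and the call of Guca2b was lost when control 2, control 3 or IE-HuR-/- 3 was left out. The label effect in Fabp6-high minus that in Fabp6-low cells was -0.67 for Guca2b (adjusted p = 4.46e-12) and -0.33 for Guca2a (adjusted p = 0.000228). Slc5a8 rose in both, by 1.44 and 1.302, with a difference of 0.17 ± 0.0817 that did not pass the test. Across cells that had at most 1 Fabp6 UMI and no UMI of 5 other region RNAs, the log2 fold change was 2.02 for Car4, 1.31 for Slc5a8, 0.30 for Slc26a6 and -0.66 for Cftr, all called. There 8 of 10 members were called, 4 higher and 4 lower, where 49.7% of all genes were called, 24.9% higher and 24.8% lower.

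**Figure D3:**
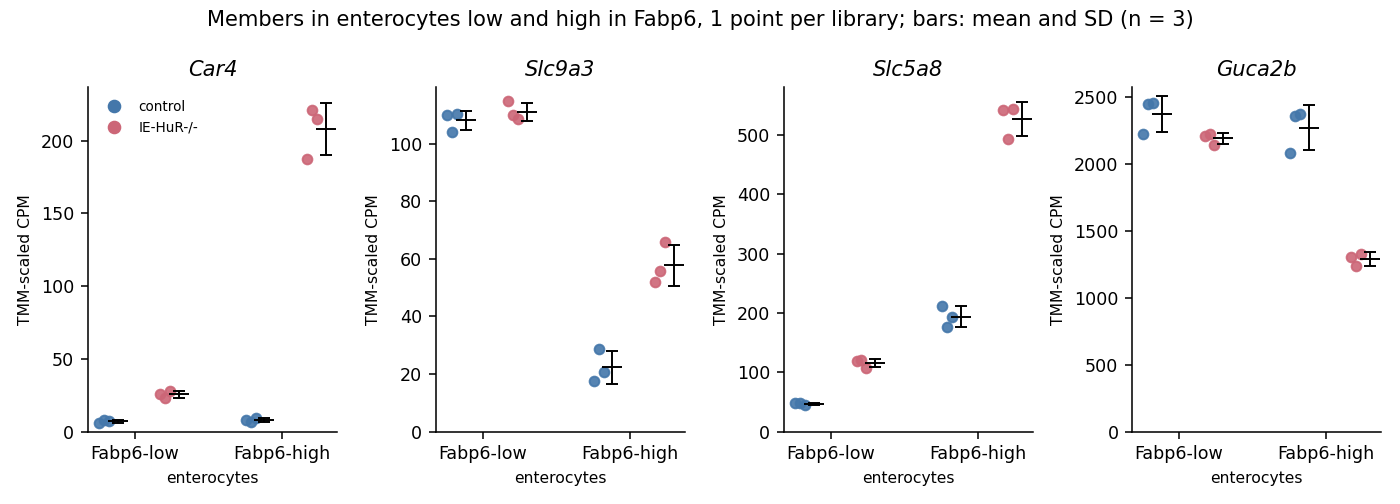
Level of Car4, Slc9a3, Slc5a8 and Guca2b (TMM-scaled CPM) in enterocytes low and high in Fabp6, 1 point per library with mean and SD, for control and IE-HuR-/- mice. The IE-HuR-/- points of Car4 and Slc9a3 lie above the control points in Fabp6-high cells, and for Slc9a3 in Fabp6-low cells they overlap them.

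Position on the villus was read from tip RNAs such as Ada and Krt20. The 25% of enterocytes with the least and the 25% with the most tip RNA, called tip-poor and tip-rich, were taken within each library (431 to 834 cells each), because a first gate had left 3 to 35 cells at the low end. With that gate the label effect on Car4 was larger in tip cells by 2.06 (adjusted p = 2.39e-05), the 1 member of 10 called against 0.182% of all genes. In control libraries all 10 members differed between tip-rich and tip-poor cells, where 78.7% of all genes were called. Slc26a3 (-4.96 on the log2 scale, tip-rich minus tip-poor), Car4 (-3.61) and Cftr (-2.92) were lower in tip-rich cells by the most. Car2 (-1.08), Gucy2c (-0.83) and Guca2b (-0.73) were lower there too. Slc5a8 (1.72) and Guca2a (0.72) were higher toward the tip, and Slc9a3 (0.13) and Slc26a6 (0.32) differed by less. These differences are under a joint TMM scaling of both kinds of cell and are not given without it. Scaled within each kind of cell, Slc9a3 was instead lower in tip-rich than in tip-poor cells of every control library. A change of scaling shifts all members, so no direction along the villus is given for Slc9a3 or Slc26a6 in control libraries. The sizes of the other differences, such as that of Guca2a, also depend on the scaling. The tip RNA limits differed between labels, at least 0.837 to 0.961% of UMIs for tip-rich cells in control and 1.31 to 1.45% in IE-HuR-/- libraries, and their part in the differences was not tested.

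By label, 7 of 10 members were called in tip-poor cells, 4 higher and 3 lower, where 39.1% of all genes were called, 19.6% higher and 19.6% lower. The count fell to 4 without IE-HuR-/- 1 or IE-HuR-/- 2, where the share of all genes called is not given. In tip-rich cells it was 10, 4 higher and 6 lower, where 54.3% of all genes were called, 26.3% higher and 28.0% lower, although Car2 (0.07) and Slc26a6 (0.05) were not called there without TMM scaling. Car4 was at 1.09, 1.498 and 1.05 CPM in control and 18.1, 21.7 and 15.8 CPM in IE-HuR-/- libraries in tip-rich cells (log2 fold change 3.91 ± 0.173, adjusted p = 3.88e-21), and at 17.7, 22.8 and 20.3 CPM and 59.8, 71.5 and 72.4 CPM in tip-poor cells (log2 fold change 1.74 ± 0.0861, adjusted p = 8.48e-17). Its label effect was larger in tip-rich cells by 2.15 ± 0.198 (adjusted p = 4.45e-13), 1 of 6 members whose label effects differed, against 26.5% of all genes. Car4 in tip-rich control cells was within its T/NK level (1.57, 2.75 and 0.510 CPM in control), so the sizes of the fold change in tip-rich cells and of this difference are taken against a value not above background. In tip-rich IE-HuR-/- cells Car4 was above its T/NK level of 7.49, 6.04 and 9.09 CPM.

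Slc9a3 differed in opposite directions along the villus. In tip-poor cells it was at 110.0, 104 and 108 CPM in control and 128, 124 and 116 CPM in IE-HuR-/- libraries (log2 fold change 0.19 ± 0.0542, adjusted p = 0.00371), a call lost without TMM scaling. In tip-rich cells it was at 89.3, 80.3 and 92.98 CPM and 75.5, 75.8 and 65.6 CPM (log2 fold change -0.27 ± 0.0639, adjusted p = 0.000477). The label effects differed by -0.47 (adjusted p = 3e-07).

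Guca2a fell in tip-rich cells, from 208, 243 and 187 CPM in control to 128, 118 and 107 CPM in IE-HuR-/- libraries (log2 fold change -0.86 ± 0.119, adjusted p = 0.0017), and Gucy2c from 82.2, 88.5 and 78.5 to 69.7, 69.4 and 70.1 CPM (log2 fold change -0.25 ± 0.0591, adjusted p = 0.000406). In tip-poor cells Guca2a had a log2 fold change of -0.14, a call lost without any single library other than control replicate 1, and Gucy2c did not pass the test (adjusted p = 0.0507). Slc26a3 was low in both labels in tip-rich cells, at 3.06, 4.56 and 3.499 CPM and 1.35, 2.30 and 2.31 CPM (log2 fold change -0.89 ± 0.246, adjusted p = 0.00238). These levels of Slc26a3 were below those in T/NK cells of the same label (11.2, 12.8 and 4.59 CPM in control and 3.56, 5.73 and 6.01 CPM in IE-HuR-/- libraries) and are not read as a change. Cftr in tip-rich cells, at 4.29, 4.82 and 5.16 and 2.59, 3.20 and 3.05 CPM, was also near its T/NK level of 5.70, 4.71 and 3.06 and 2.81, 1.08 and 2.16 CPM. Guca2b (-0.13 and -0.18 in tip-poor and tip-rich cells) and Slc5a8 (1.41 and 1.499) had label effects that did not pass the test of a difference between them, with differences of -0.05 ± 0.0521 and 0.08 ± 0.152, although that of Guca2b was called without TMM scaling (-0.17, adjusted p = 0.00209).

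**Figure D4:**
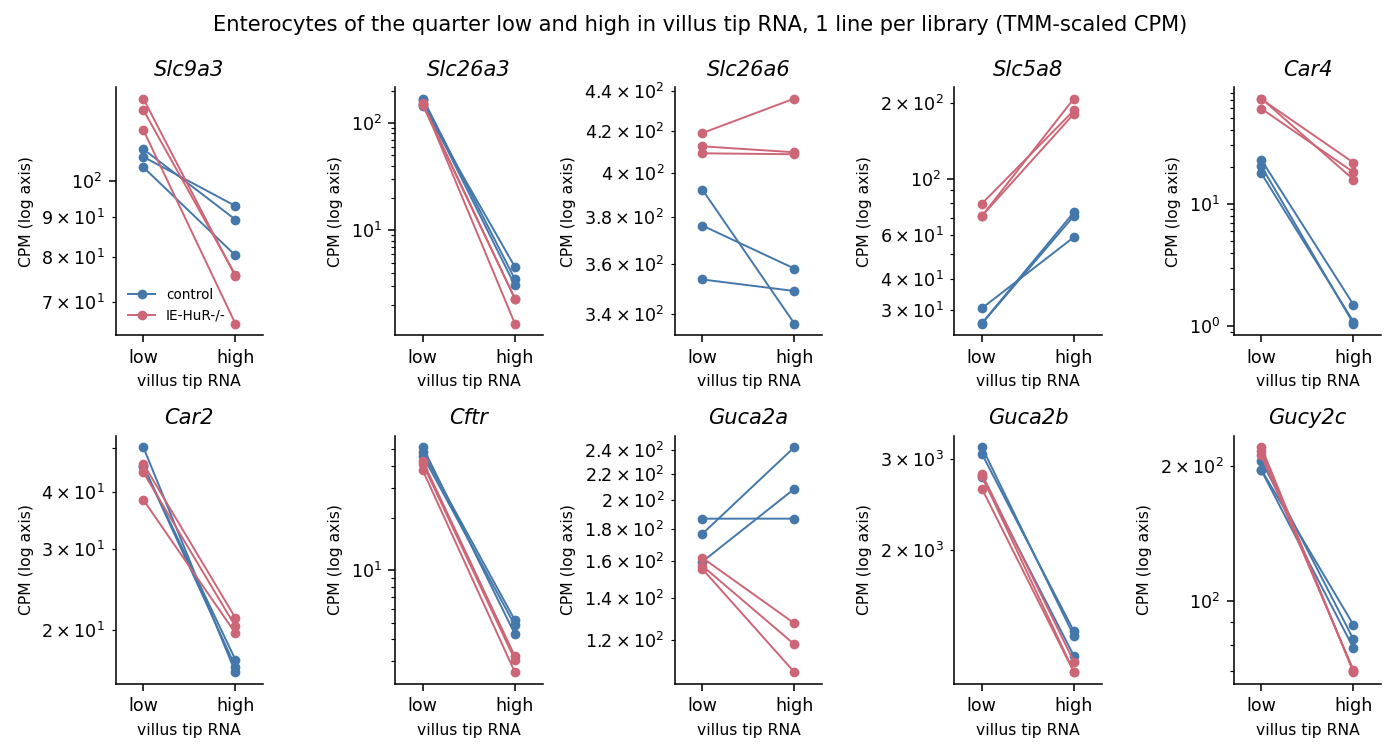
Level of the members (TMM-scaled CPM, log axis) in the 25% of enterocytes low and the 25% high in villus tip RNA, with 1 line per library. The lines of Car4 fall steeply in control libraries, and less in IE-HuR-/- libraries, where tip-rich cells are at 15.8 to 21.7 CPM against 1.05 to 1.498 CPM.

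Goblet-gated cells shared the rise of Car4 and Slc5a8, and Guca2a and Guca2b differed in direction in them. There 6 of 10 members were called, 3 higher and 3 lower, where 20.1% of all genes were called, 10.8% higher and 9.24% lower. Guca2a was at 548, 397 and 578 CPM in control and 798, 757 and 1024 CPM in IE-HuR-/- libraries (log2 fold change 0.76 ± 0.158, adjusted p = 0.00618), without overlap, while Guca2b was at 1277, 1337 and 1369 CPM and 831, 909 and 771 CPM (log2 fold change -0.67 ± 0.102, adjusted p = 0.000479). Guca2a RNA thus rose and Guca2b RNA fell in goblet-gated cells, with the rise of Guca2a still called at 0.59 without TMM scaling. The difference of the label effect on Guca2a between goblet-gated cells and enterocytes, where Guca2a fell, was 1.07 ± 0.325 and did not pass the test (adjusted p = 0.148); none of the 10 members did in edgeR, with 2 at an unadjusted p under 0.05, where 1.51% of all genes were called.

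Car4 in goblet-gated cells was at 10.4, 2.92 and 9.17 CPM in control and 67.8, 94.2 and 91.2 CPM in IE-HuR-/- libraries (log2 fold change 3.49 ± 0.401, adjusted p = 0.00408), and Slc5a8 at 49.5, 40.2 and 45.7 CPM and 87.0, 119 and 138 CPM (log2 fold change 1.34 ± 0.158, adjusted p = 0.000161). The control level of Car4 rested on 13 to 20 goblet-gated cells per library with a UMI of it. A single cell held 33 Car4 UMIs in control 1 and 28 in control 3. In control 2 the level of Car4 was close to that in T/NK cells. The size of its rise is thus taken against few cells and, in control 2, a value near background. Cftr (log2 fold change -0.74 ± 0.208, adjusted p = 0.0215) and Car2 (log2 fold change -0.62 ± 0.172, adjusted p = 0.0204) fell, but both calls depended on single libraries, that of Cftr on control 1, IE-HuR-/- 2 and IE-HuR-/- 3 and that of Car2 on control 3, IE-HuR-/- 1 and IE-HuR-/- 3, and DESeq2 called neither. Slc26a3, Slc26a6, Slc9a3 and Gucy2c did not pass the test. Other settings called them lower: without the 5% of cells with most UMIs Slc26a3 was at -1.34 (adjusted p = 0.000684) and Slc26a6 at -0.61 (adjusted p = 0.000302), and Slc9a3 (-0.47) and Gucy2c (-0.44) were called without TMM scaling, as they were without IE-HuR-/- 1 and with gate limits doubled. Villus bottom RNAs summed to 4724 to 7237 CPM in goblet-gated cells of control and 18509 to 22913 CPM of IE-HuR-/- libraries, and enterocyte markers to 47736 to 50364 and 35514 to 43127 CPM, and their part in these values was not tested.

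In epithelial cells outside every gate Car4 was at 21.3, 26.1 and 20.7 CPM in control and 140.4, 165 and 137 CPM in IE-HuR-/- libraries (log2 fold change 2.68 ± 0.0943, adjusted p = 2.09e-11) and thus above its level in enterocyte- and goblet-gated cells of the same label. In control libraries 12 to 30 of these cells per library had at least 3 Car4 UMIs, so its control level there rested on few cells. Slc5a8 was at 44.3, 44.1 and 45.5 CPM and 151, 162 and 147 CPM (log2 fold change 1.78 ± 0.0613, adjusted p = 3.72e-17). Here 8 of 10 members were called, 3 higher and 5 lower, against 39.3% of all genes (20.1% higher and 19.2% lower), and Guca2b (-0.31), Car2 (-0.43) and Gucy2c (-0.24) were among those that fell. Guca2a rose in these cells (0.19), a call lost without TMM scaling. The calls of Slc9a3, Cftr and Guca2a there were each lost without at least 1 single library. Without control 1, 5 members were called, and the share of all genes called in that fit is not given. Villus bottom RNAs summed to 2951 to 4235 CPM in these cells of control and 21148 to 23745 CPM of IE-HuR-/- libraries. Over all epithelial cells together 8 of 10 members were called, against 51.6% of all genes. Guca2a, which rose in goblet-gated and ungated cells and fell in enterocyte-gated cells, was at -0.06 over all epithelial cells and not called. The calls of Car2 (-0.15) and Gucy2c (-0.10) over all epithelial cells depended on single libraries, among them control 2 and IE-HuR-/- 2, and DESeq2 called neither.

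Crypt-gated cells gave no call in edgeR among the 3 members tested, with none at an unadjusted p under 0.05 and none called by DESeq2, where 0.0332% of all genes were called. Cftr was at 105, 93.2 and 86.7 CPM in control and 127, 69.4 and 79.1 CPM in IE-HuR-/- libraries, which overlapped. With 9 to 29 crypt-gated cells per library, a difference of Cftr was not detectable at this depth (log2 fold change -0.06 ± 0.320). In EEC cells edgeR called none of 9 members tested (2 at an unadjusted p under 0.05), against 0.262% of all genes, and in tuft cells none of 7 (0 at an unadjusted p under 0.05), against 0.221%. Gucy2c in EEC cells was at 260.2, 249 and 296 CPM in control and 328, 342 and 285 CPM in IE-HuR-/- libraries, and in tuft cells at 269, 259.6 and 278 CPM and 277, 286 and 311 CPM.

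T/NK-gated cells gave the level of epithelial RNA in cells of another type. Car4 was at 1.57, 2.75 and 0.510 CPM in control and 7.49, 6.04 and 9.09 CPM in IE-HuR-/- libraries (log2 fold change 2.15 ± 0.372, adjusted p = 0.00507) and Slc5a8 at 8.65, 11.97 and 5.36 CPM and 19.5, 16.9 and 20.6 CPM (log2 fold change 1.10 ± 0.214, adjusted p = 0.0136), and these 2 of 10 members were called against 3.74% of all genes. The calls rested on single libraries: that of Car4 was lost without control 1 or IE-HuR-/- 3, and that of Slc5a8 without control 1 or any IE-HuR-/- library, and 7 members were called without control 3. The share of all genes called in that fit is not given, so this count is not read as a result about the members. The T/NK levels of Car4 and Slc5a8 were several times below those in enterocytes of the same label. An unadjusted p under 0.05 in edgeR was reached by 5 members in T/NK cells. Cftr (-1.19), Gucy2c (-0.95), Slc26a3 (-0.91) and Guca2b (-0.91) were lower there in IE-HuR-/- libraries on the log2 scale but were not called. The part of this background in their levels in enterocytes was not tested. Car2, the member with its own T/NK level, was at 441, 438 and 477 CPM in control and 445, 451 and 423 CPM in IE-HuR-/- libraries, with no call.

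**Figure D5:**
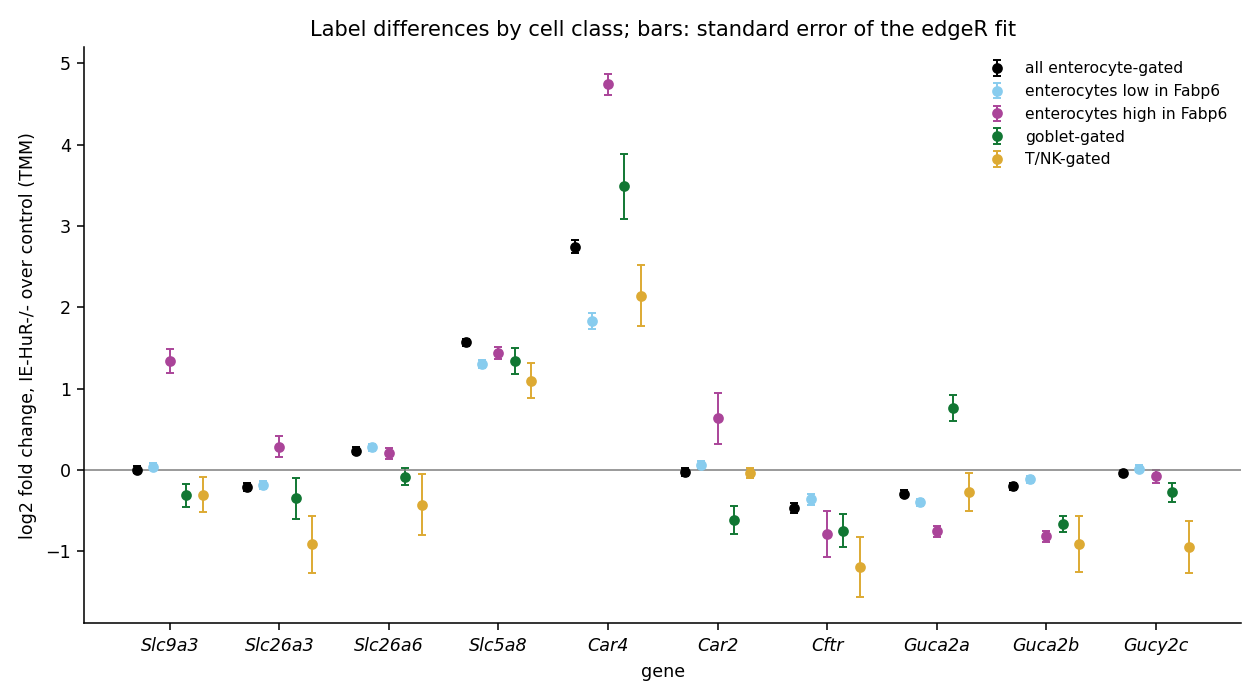
Log2 fold change (IE-HuR-/- minus control, TMM-scaled, with SE) of the 10 members in all enterocyte-gated cells, Fabp6-low and Fabp6-high enterocytes, goblet-gated cells and T/NK-gated cells. Car4 and Slc5a8 are above 0 in all 5 classes, and Guca2a is below 0 in enterocytes and above 0 in goblet-gated cells. The difference of the label effect on Guca2a between goblet-gated cells and enterocytes did not pass the test.

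The wider families around the members are given as counts of genes called in enterocytes, where 28.7% of all genes were higher and 30.8% lower, and no list was tested as a group. These counts are under TMM scaling and were not recomputed without it. Of the other carbonic anhydrases, 2 of 7 tested rose and 2 fell: Car13 was at 31.7 to 32.6 CPM in control and 39.9 to 46.3 CPM in IE-HuR-/- libraries and Car9 at 8.37 to 9.34 CPM in control and 6.30 to 6.73 CPM in IE-HuR-/- libraries. Of other chloride and bicarbonate transporters, 2 of 9 rose and 3 fell, with the sodium bicarbonate cotransporter Slc4a4 at 128 to 145 CPM in control and 165 to 177 CPM in IE-HuR-/- libraries and Slc4a7 at 155 to 179 CPM in control and 105 to 117 CPM in IE-HuR-/- libraries. Of the sodium/hydrogen exchangers, their scaffolds and the epithelial sodium channel, 6 of 9 tested rose (list median 0.31, all genes -0.03), with the exchanger Slc9a2 at 155 to 164 CPM in control and 195 to 214 CPM in IE-HuR-/- libraries. The 1 that fell was the channel subunit Scnn1a, at 2.60 to 2.94 CPM in control and 1.99 to 2.51 CPM in IE-HuR-/- libraries.

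Of the machinery that feeds chloride secretion, 4 of 13 tested rose and 5 fell. Slc12a2, which loads the cell with chloride, was low at 1.28 to 1.67 CPM in control and 0.744 to 0.913 CPM in IE-HuR-/- libraries, and Clca4a was at 2190.2 to 2388 CPM in control and 3543 to 4128 CPM in IE-HuR-/- libraries. In cyclic nucleotide signalling 4 of 11 rose and 6 fell. The prostaglandin receptor Ptger4 was at 54.8 to 57.4 CPM in control and 116 to 127 CPM in IE-HuR-/- libraries, and Pde5a, which degrades cyclic GMP, was at 65.7 to 74.0 CPM in control and 94.6 to 99.5 CPM in IE-HuR-/- libraries, while Pde3a was at 23.2 to 26.5 CPM in control and 13.4 to 14.1 CPM in IE-HuR-/- libraries.

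The list of monocarboxylate transporters, the family of function to which Slc5a8 belongs, also held their accessory proteins Bsg and Emb. Of 6 genes of this list tested, 2 rose (Slc16a3 and Bsg) and 2 fell. Slc16a3 was at 50.5 to 54.6 CPM in control and 97.9 to 103 CPM in IE-HuR-/- libraries and Slc16a1 at 32.0 to 34.6 CPM in control and 23.3 to 24.4 CPM in IE-HuR-/- libraries. Of the aquaporins 2 of 5 rose and 2 fell, with Aqp1 at 101 to 107 CPM in control and 49.8 to 50.2 CPM in IE-HuR-/- libraries and Aqp8 at 1.93 to 2.12 CPM in control and 0.387 to 0.661 CPM in IE-HuR-/- libraries. Of the RNAs of region, 6 of 8 of the proximal intestine fell and none rose, and the 5 of the distal intestine rose, with Fabp6 at 563 to 588 CPM in control and 2159 to 2580.4 CPM in IE-HuR-/- libraries, while 2 of 3 colon genes tested fell.

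The genes whose levels followed each member most closely over 24 class-by-library sums (enterocyte, goblet, crypt and T/NK, log2(CPM + 1), Pearson correlation among 8122 genes) are given as a description, and sums of one library share its depth. Car4 was closest to Muc4 (r = 0.871), Mt1 (0.870) and Reg3g (0.865). Guca2b was closest to Btnl1 (0.985) and Gucy2c to Atp1b1 (0.987), a subunit of the sodium pump. Cftr was closest to Nfib (0.981), Slc26a3 to Maoa (0.963), Slc26a6 to Ptprh (0.982), Slc9a3 to C530008M17Rik (0.977), Guca2a to Mettl7b (0.948), Slc5a8 to Gprc5a (0.952) and Car2 to Saraf (0.983).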

How the data were processed

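Each library was deposited as a matrix of raw UMI counts per gene and cell, which the authors made with Cell Ranger and, per the labels, the mm10 build; the methods name a 3′ kit and a human reference, the labels a 5′ kit and the matrix header another Cell Ranger version. Deposited barcodes had at least 500 UMIs. Here cells with at least 200 genes were gated by marker RNAs (at least 2 markers and 3 marker UMIs, and 5% of UMIs for enterocytes, 2% for goblet, 0.5% for crypt and 1% for T/NK cells). Cells that passed a non-epithelial list were not counted as epithelial. Cells that passed more than 1 secretory list (Paneth, goblet, tuft and EEC) were left out. A cell that passed the enterocyte list and also a goblet, tuft, EEC or crypt list was kept in the latter class. No doublet caller was run. Counts were summed per library and class and tested with edgeR 4.0.16 (R 4.3.3, quasi-likelihood, TMM, filterByExpr with minimum count 10 and total 15, Benjamini-Hochberg, 0.05). DESeq2 1.42.0, no TMM, other gates and filters, deeper cells, and leaving out each library were alternatives. The members, gene lists and tests were chosen with earlier results of these data known. By a fixed rule all 10 members, the 3 genes most like each (the first is printed, 3 for Car4), and of each pathway list up to 2 called rises and 2 falls were chosen. Not all genes chosen from the lists are printed, and those left out include larger changes, such as Car8 (-1.51) and Slc9a5 (1.52) on the log2 scale. Replicates are separate animals. The fits were tested on simulated data. Depth was 59518012 to 91818560 UMIs per library. Exact permutation tests were used for shares of cells.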

Additional observations from a re-analysis of the deposited data

Results flagged for a closer look

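Label effects of 6 of 10 members differed between enterocytes poor and rich in villus tip RNA, by the interaction test of edgeR on the log2 scale. Of all genes, 26.5% were called in that test. The effect in tip-rich minus that in tip-poor cells was 2.15 for Car4, 0.43 for Car2, -0.84 for Slc26a3, -0.47 for Slc9a3, -0.73 for Guca2a and -0.38 for Gucy2c. The difference of Slc26a3 depended on control 2 and IE-HuR-/- 1, and that of Guca2a on IE-HuR-/- 2, each left out in turn. Car4 in tip-rich control cells and Slc26a3 in tip-rich cells of both labels were not above their levels in T/NK cells, so the sizes of their differences are uncertain. With the preset gates for tip and lower enterocytes, Car4 differed by 2.06, although the lower gate held 3 to 35 cells per library.

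Between Fabp6-high and Fabp6-low enterocytes the label effects of 5 of 10 members differed, against 20.6% of all genes. The difference was 2.95 for Car4, 1.33 for Slc9a3, 0.49 for Slc26a3, -0.33 for Guca2a and -0.67 for Guca2b. That of Slc26a3 depended on control 1 and IE-HuR-/- 2, and without TMM scaling it was 0.30 and not called.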

How the results depend on the processing

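Counts of members called stayed within 1.5 times the reported count in 130 comparisons of a setting with it and moved further in 10. In T/NK cells, leaving out a library gave 0 to 7 members (2 with all libraries), in tip-poor enterocytes 4 to 8, and in ungated epithelial cells as few as 5, without control replicate 1. The shares of all genes called in these fits are not given, so these counts describe the settings and not the members. For lower-gated enterocytes tip-poor cells gave 7 members, and for the difference between tip and lower enterocytes the tip-poor and tip-rich cells gave 6.

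Direction changed for 10 single values. Without TMM scaling Slc9a3 was -0.18 in enterocytes and -0.14 in Fabp6-low cells, Gucy2c -0.17 in Fabp6-low cells and Slc26a6 -0.15 in Fabp6-high cells. Car2 in enterocytes was 0.24 with gate limits doubled and 0.19 in cells without region RNAs, both called, and Slc26a3 was 0.29 in Fabp6-high cells. In place of the first tip gate, Gucy2c was -0.25 in tip-rich cells, and Slc9a3 was 0.19 and Guca2a -0.14 in tip-poor cells. The cause was not tested.

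Same-numbered libraries did not deviate together in enterocytes (correlations -0.121, -0.168 and 0.0535). Correlations over 3 libraries per label cannot show whether the numbers pair the mice. With the replicate block 7 members were called in enterocytes, where 7192 of 12266 genes were called. In goblet-gated cells 5 members and 1672 of 9628 genes were called, and Car4 was 3.51 there with an edgeR adjusted p of 0.0502. Crypt, tuft and EEC cells were too few for small differences to be seen.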
